A study of Mus musculus with 2 samples.

Results

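The replication-dependent histone genes are the intronless genes, clustered on the chromosomes, that supply most of the histone protein used to package newly copied DNA. They were taken here as every transcript row whose gene name in the deposited annotation begins with Hist1h, Hist2h, Hist3h or Hist4h. This gave 72 rows of 51 genes, out of 44170 transcript rows and 24203 named genes on the arrays. The genes fall into 6 of linker histone H1, 13 of H2A, 11 of H2B, 9 of H3 and 12 of H4. By cluster, 39 belong to Hist1 on chromosome 13, 8 to Hist2 on chromosome 3, 3 to Hist3 on chromosome 11 and 1 to Hist4 on chromosome 6. The set was chosen with earlier results of the same arrays known, in which Hist1h2bg and Hist1h2ak had been seen to be lower, so its differences are given as a description.

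RNA was profiled on single-colour NimbleGen arrays from long-term haematopoietic stem cells (LT-HSCs, the marrow cells that sustain blood formation), sorted out of the bone marrow of 8-week-old C57BL/6 mice. The 2 arrays held cia-cGAS WT cells (1 array) and cia-cGAS knockout cells (1 array), cia-cGAS being described in the labels as a circular RNA. No other allele or agent is named for either group, and the sources used here do not give the number of animals, any pooling, the sort markers or the way the deletion was made. With 1 array per group there is no replicate error, no test was run, and each difference describes these 2 samples. Levels of cia-cGAS were not analysed here, because no row could be assigned to it by identity or position.

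Values are RMA intensities on the log2 scale, and differences are knockout minus wild type on that scale. A detection floor on each array was set at the 95th percentile of 1028 rows of odorant, vomeronasal and taste receptor genes, at 9.11 (wild type) and 8.97 (knockout). A gene above only 1 floor has a bound, written as at least that fold against the floor of the other array. Of 14 LT-HSC markers, 7 passed the wild-type floor and 8 the knockout floor, with Kit and Ly6a on both arrays and Procr and Slamf1 on neither. Of the 8 markers above at least 1 floor, 4 had a positive and 4 a negative difference, with a median of 0.07. The highest was that of Hlf, a transcription factor gene of stem cells. It read 8.30 in wild-type cells, under the floor there, and 9.37 in knockout cells, with a bound of 0.27. The lowest were Hoxa9 at -0.60 and Mecom at -0.48. Medians use the measured differences of genes above at least 1 floor, also where the other value lies under its floor.

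Replication-dependent histone genes are transcribed almost only in S phase, under the coactivator NPAT, which cyclin E and CDK2 phosphorylate. Their mRNAs end in a conserved stem-loop bound by SLBP instead of a poly(A) tail, and they are degraded when DNA synthesis stops. Genes of the 4 core classes and of H1 sit side by side, and H2A and H2B genes often lie head to head across a shared promoter. In marrow, these transcripts are known mainly from dividing progenitors, since most long-term stem cells are at rest. The cDNA hybridised here was primed with oligo dT, per the labels' protocols, so the arrays do not show which share of each stem-loop transcript was copied, and a different level and a different share with a tail cannot be told apart. Likewise, in bulk RNA, fewer cells in S phase and less histone RNA per cell cannot be told apart.

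The promoters of the class members carry different short elements, and stretches are shown here because members sharing an element had a wide range of differences. RefSeq promoter windows of 300 bases, from 250 before to 50 after the gene start on GRCm38.p6, were matched by gene ID for 45 of the 51 members. The octamer ATTTGCAT (reverse complement ATGCAAAT), known as the H2B element bound by OCT1, was found on the sense strand in 5 of 8 H2B genes and on the other strand in 6 of 13 H2A genes. On either strand it was in 0 of 6 H1, 0 of 7 H3 and 0 of 11 H4 windows, and in 1.74% of all 32851 promoter windows. Below, the octamer is in capitals in stretches of 110 bases that end at or before the gene start.
Hist1h2bg: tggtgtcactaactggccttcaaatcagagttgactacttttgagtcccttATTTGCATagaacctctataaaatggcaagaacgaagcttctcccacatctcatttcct
Hist1h2ae: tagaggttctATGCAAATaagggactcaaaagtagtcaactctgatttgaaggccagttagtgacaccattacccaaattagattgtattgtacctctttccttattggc
Hist1h2bb: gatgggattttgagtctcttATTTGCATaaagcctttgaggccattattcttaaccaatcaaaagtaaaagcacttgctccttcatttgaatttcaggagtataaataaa
Hist1h2ba: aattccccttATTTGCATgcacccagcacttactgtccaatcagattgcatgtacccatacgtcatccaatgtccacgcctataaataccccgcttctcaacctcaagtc
Hist1h2be: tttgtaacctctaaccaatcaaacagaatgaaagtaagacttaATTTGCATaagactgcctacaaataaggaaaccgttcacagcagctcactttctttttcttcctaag
The first pair lies head to head on chromosome 13, Hist1h2bg on the plus strand (chr13:23571290-23571399) and Hist1h2ae on the minus strand (chr13:23571249-23571358), with 180 bases between their starts, so the octamers are the same 8 bases read from both strands. Hist1h2bb lies on the plus strand (chr13:23746624-23746733), and Hist1h2ba (chr13:23934221-23934330) and Hist1h2be (chr13:23585971-23586080) on the minus strand. Hist1h2be has 2 windows in the RefSeq table, and the other one holds no octamer. The differences of these H2B genes, given in full further on, were -2.93, -0.91, -1.01 and -0.30, so the octamer was present at the lowest and near the highest values of the class. The remaining H2B gene with an octamer, Hist2h2bb, was below the knockout floor and at least 1.34-fold lower.

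H4 promoters carried a different element, GGTCCG (reverse complement CGGACC), the core of the H4-specific proximal element. It was present on the sense strand in 10 of 11 H4 windows, in 1 of 8 H2B windows and in 0 of 6 H1, 0 of 13 H2A and 0 of 7 H3 windows, against 4.56% of all windows. On either strand it was in 1 of 7 H3 windows as well, and in 8.25% of all windows. The stretches directly before the starts of Hist1h4k (chr13:21750554-21750663, minus strand) and Hist1h4c (chr13:23698459-23698568, minus strand) show it in capitals.
Hist1h4k: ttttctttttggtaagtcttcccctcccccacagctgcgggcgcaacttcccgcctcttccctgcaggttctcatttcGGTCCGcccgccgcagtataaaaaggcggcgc
Hist1h4c: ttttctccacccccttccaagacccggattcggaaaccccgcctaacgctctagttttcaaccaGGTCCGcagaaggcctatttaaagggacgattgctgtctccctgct
Only the H4 window of Hist1h4a, a gene below both floors, lacked it. In H1 genes the AAACACA box (reverse complement TGTGTTT) was on the sense strand of 5 of 6 windows and in 3.57% of all windows, or in 7.18% on either strand. It was also on the sense strand in 2 of 13 H2A windows and on the other strand in 1 of 8 H2B windows, and in no H3 or H4 window. Hist1h1b (chr13:21780643-21780752, minus strand) and Hist1h1c (chr13:23738685-23738794, plus strand) both carried it, in capitals, and are the 2 H1 genes above both floors, with differences of -1.48 and 0.01.
Hist1h1b: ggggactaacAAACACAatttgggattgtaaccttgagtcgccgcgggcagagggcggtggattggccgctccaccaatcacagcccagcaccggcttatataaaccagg
Hist1h1c: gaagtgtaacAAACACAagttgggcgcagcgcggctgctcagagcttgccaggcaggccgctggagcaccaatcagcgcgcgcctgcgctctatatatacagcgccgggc
The H1 window without it was that of Hist1h1a. CCAAT, a box found in many promoters, was on the sense strand in 6 of 6 H1, 13 of 13 H2A, 8 of 8 H2B and 7 of 7 H3 windows and in 1 of 11 H4 windows, against 21.1% of all windows (37.4% with its reverse complement ATTGG on either strand). The stretch before Hist1h2ak (chr13:21753913-21754022, minus strand), the member with the lowest difference, shows both orientations in capitals.
Hist1h2ak: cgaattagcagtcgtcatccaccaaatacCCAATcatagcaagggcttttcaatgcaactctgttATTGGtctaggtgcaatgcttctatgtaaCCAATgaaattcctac
A match to these letters is not a measured binding site, and the motifs were chosen with the differences known.

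Histone cluster genes at least 2-fold lower on the knockout array were found in the classes H1, H2A, H2B and H4, and none in H3. Of the 51 genes, 34 were above both floors, 6 above the wild-type floor alone, 0 above the knockout floor alone and 11 below both. Among the 34 above both floors, 18 were at least 2-fold lower and 0 at least 2-fold higher, where 4.19% and 5.38% of the 9240 genes above both floors were lower and higher by that much. Their median difference was -1.05, beside -0.04 over those 9240 genes. A negative difference was seen for 30 of the 34, where 53.6% of the 9240 had one. With bounds counted, 20 of 40 genes were at least 2-fold lower, beside 4.06% of 10859 genes, and the median of the 40 was -1.13, a 2.19-fold lower level, beside -0.02. Where each value below a floor was replaced by the floor, the median was -1.002. At least 3-fold lower were 6 members, beside 0.774% of the 10859 genes, and at least 1.5-fold lower 27, beside 12.3%. None of the 40 was at least 2-fold higher, beside 5.53%, and 36 had a negative difference, beside 51.6%. Counted by transcript row, 31 of 55 member rows above a floor were at least 2-fold lower, beside 3.81% of 16419 rows. With 1 row per annotated place, 19 of 39 were at least 2-fold lower. Since earlier results on this contrast were known when the set was chosen, nothing is read from these shares. The 6 genes above the wild-type floor alone were in the set only because of their wild-type level, so their differences could only be negative in the counts with bounds.

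**Figure D1:**
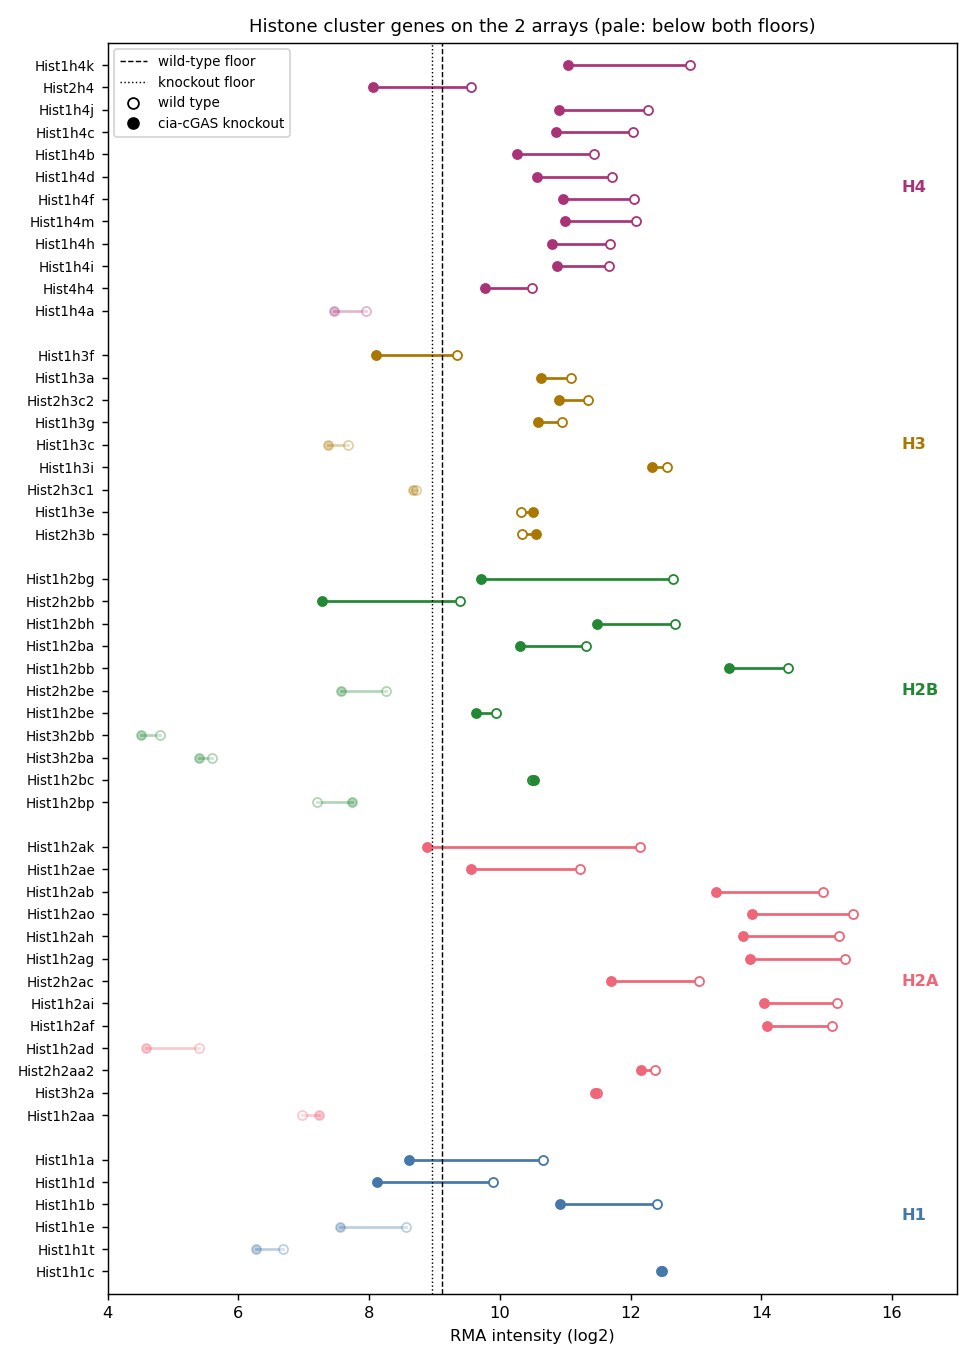
RMA intensity (log2) of all 51 histone cluster genes in the wild type (open circles) and the cia-cGAS knockout (filled circles), grouped by class, with pale symbols for the 11 genes below both detection floors (vertical lines). Among the 34 genes above both floors, 30 had the filled circle to the left and 4 to the right.

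H2A is a core histone that pairs with H2B in the nucleosome. Of 11 H2A genes above a floor, 8 were at least 2-fold lower, beside 4.06% of all genes above a floor. All 11 differences were negative, beside 51.6% of all those genes, and the H2A median was -1.46. The 8 include Hist1h2ao, Hist1h2ah and Hist1h2ai, each read from a row at the same annotated start. Hist1h2ak (now H2ac15, gene ID 319169, MM9 chr13:21845263-21845781) read 12.15 on the wild-type array and 8.88 on the knockout array, under the floor there. It was at least 9.09-fold lower, the largest bound of the set. Hist1h2ae (H2ac8), the head-to-head partner of Hist1h2bg, read 11.22 and 9.55, and its other row differed by -1.73. Hist1h2ab (H2ac4) read 14.95 and 13.30, and its 3 rows differed by -1.79 to -1.54. Both genes were thus about equally lower in each of their rows.

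The H2A genes Hist1h2ao, Hist1h2ag, Hist1h2ah, Hist1h2ai and Hist1h2af encode nearly identical proteins, and their rows may share hybridisation. Hist1h2ao (H2ac24) read 15.40 (wild type) and 13.86 (knockout), a difference of -1.53. Hist1h2ag (H2ac11) read 15.28 and 13.83, a difference of -1.46. The rows of Hist1h2ao, Hist1h2ah and Hist1h2ai were placed by the annotation at the same start, chr13:21902335 on MM9, so these 3 are not independent measurements of 3 genes. Hist1h2ah (H2ac12) differed by -1.48 there, and its row at another annotated place read 9.12 and 8.11, under the knockout floor, with a bound of -0.15. Hist1h2ai (H2ac13) differed by -1.12 there and by -1.48 in a row that overlaps the place of Hist1h2ad, and its remaining row lay below both floors. Hist1h2ah and Hist1h2ai are thus counted as at least 2-fold lower by their rows at the start shared with Hist1h2ao. On GRCm38.p6 the Hist1h2ah start (chr13:22035643) comes directly before those of Hist1h4i (22041362) and Hist1h2ag (22042949). On MM9 its row with the bound of -0.15 has that same order. The Hist1h2ai start (21716412) is the first among members with a window on chromosome 13, as is its row below both floors. By this order, the rows that stand for Hist1h2ah and Hist1h2ai are not at their own positions. At its own position neither gene was measured as 2-fold lower. Hist1h2af (H2ac10) read 15.08 and 14.09, a difference of -0.995, and at 1.99-fold it stood just outside the 2-fold limit. The highest value of any row was 15.89 on the wild-type array and 15.84 on the knockout array, so differences of these genes can be compressed.

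H2A genes outside chromosome 13 had smaller differences, with 1 exception. Hist2h2ac (H2ac20) on chromosome 3 read 13.04 (wild type) and 11.70 (knockout), 2.52-fold lower. Hist2h2aa2 (H2ac19), on the same chromosome, read 12.38 and 12.15, a difference of -0.23, while its other rows gave differences down to -1.31. Hist3h2a (H2aw) on chromosome 11 read 11.48 and 11.45, a difference of -0.03, and its other row, above the knockout floor alone, differed by 0.70. Of the 4 genes of the 2 minor clusters on chromosomes 11 and 6, Hist3h2a and Hist4h4 alone were above a floor.

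H2B, the partner of H2A in the nucleosome, covered the widest range among genes above both floors. Hist1h2bg (H2bc8, gene ID 319181, MM9 chr13:23663264-23663883) read 12.65 (wild type) and 9.72 (knockout), 7.62-fold lower. Hist1h2bh (H2bc9) read 12.67 and 11.49, a 2.27-fold lower level. Hist1h2ba (H2bc1), a histone gene known from testis, read 11.32 and 10.31, 2.01-fold lower, just inside the limit. The other testis genes, Hist1h2aa, which lies head to head with it at 281 bases, and Hist1h1t, were below both floors. Thus 3 of 7 H2B genes above a floor were at least 2-fold lower, beside 4.06% of all genes above a floor. The median of the 7 was -1.01.

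None of the other H2B genes reached 2-fold, as a measured fold or as a bound. Hist1h2bb (H2bc3) read 14.41 and 13.51, a difference of -0.91. Hist1h2be (H2bc6) read 9.94 and 9.64, a difference of -0.30. Hist1h2bc (H2bc4, MM9 chr13:23776084-23784351), whose annotated transcript spans 8267 bases, read 10.49 and 10.52, a difference of 0.03. Hist1h2bg and Hist1h2bc, both in the chromosome 13 cluster, therefore stood at the lowest and the highest value of the class. Hist2h2bb (H2bc18) on chromosome 3 read 9.39 and 7.27 and was at least 1.34-fold lower.

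H4, one of the most conserved core histones, had lower values on the knockout array throughout. All 11 H4 genes above a floor had a negative difference, beside 51.6% of all genes above a floor. The differences ran from -1.86 to -0.72, with a median of -1.15. Of the 11, 7 were at least 2-fold lower, beside 4.06% of all genes above a floor. Hist1h4k (H4c12, MM9 chr13:21842010-21842422) read 12.91 (wild type) and 11.05 (knockout), 3.64-fold lower, and its other row differed by -1.21. Hist1h4j (H4c11) read 12.27 and 10.90, with both of its rows at -1.37. Hist1h4c (H4c3) read 12.04 and 10.86, Hist1h4b (H4c2) 11.44 and 10.26, and Hist1h4d (H4c4) 11.71 and 10.56, with differences of -1.18, -1.18 and -1.15. Hist1h4f (H4c6) differed by -1.09 and Hist1h4m (H4c18) by -1.08. These H4 genes encode the same protein from similar coding sequences, so their likeness may in part be that of shared hybridisation, which was not tested.

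The other 4 H4 genes above a floor did not reach 2-fold in the row that stands for the gene. Hist1h4h (H4c8) differed by -0.89 and Hist1h4i (H4c9) by -0.80. Their other rows were past 2-fold, at -1.13 for Hist1h4h and down to -1.60 for Hist1h4i. Hist4h4 (H4f16) on chromosome 6, a cluster of a single gene, read 10.49 and 9.78, 1.64-fold lower and the smallest H4 difference. Hist2h4 (H4c14) on chromosome 3 read 9.56 and 8.05 and was at least 1.51-fold lower.

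H3 genes differed least. Of 7 H3 genes above a floor, 0 were at least 2-fold lower or higher, and the median was -0.37. Over all genes above a floor 4.06% were lower and 5.53% higher by that much, so a count of 0 in 7 genes is near those shares. Hist1h3i (H3c11, MM9 chr13:21874828-21875239) read 12.55 (wild type) and 12.33 (knockout), a difference of -0.22. It lies between Hist1h1b, at -1.48, and Hist1h2bp, below both floors, in the same stretch of chromosome 13 as Hist1h2ak. Hist1h3a (H3c1) read 11.08 and 10.63, a difference of -0.45, and its neighbour Hist1h1a was at least 3.25-fold lower. Hist1h3g (H3c8) differed by -0.37 and Hist1h3e (H3c6) by 0.18. The small values thus sat among genes of other classes with larger ones.

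H3 genes of chromosome 3 were similar. Hist2h3c2 (H3c15) read 11.35 and 10.91, a difference of -0.44. Hist2h3b (H3c13), whose rows overlap those of Hist2h3c2 in the annotation, read 10.34 and 10.55, a difference of 0.22, the highest of any member above a floor, and its other row differed by -0.47. Hist1h3f (H3c7), above the wild-type floor alone, read 9.34 and 8.10 (under the floor) and was at least 1.29-fold lower, a bound smaller than the 1.37-fold of Hist1h3a. No difference between classes was tested, since each rests on the same 2 arrays.

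**Figure D2:**
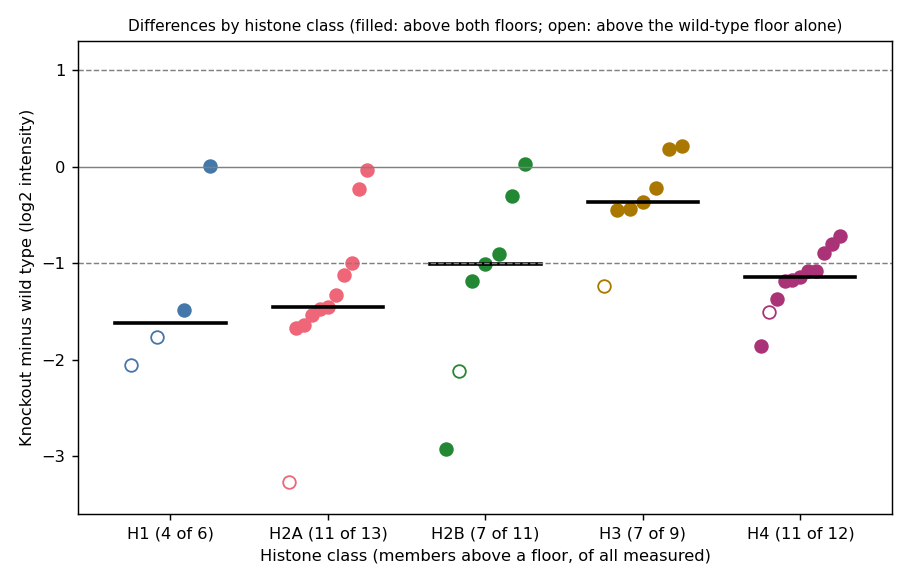
Knockout minus wild type (log2 intensity) of the 40 histone cluster genes above a floor by class, filled where above both floors and open where above the wild-type floor alone, with the class median as a bar and dashed lines at 2-fold. Medians were -1.62 for H1, -1.46 for H2A, -1.01 for H2B, -0.37 for H3 and -1.15 for H4.

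Linker histones, which bind DNA between nucleosomes, were split. Hist1h1a (H1f1, gene ID 80838, MM9 chr13:23855561-23856275) read 10.67 (wild type) and 8.61 (knockout) and was at least 3.25-fold lower. Hist1h1d (H1f3) read 9.89 and 8.13 and was at least 1.90-fold lower. Hist1h1b (H1f5), on both arrays above the floor, read 12.40 and 10.92, 2.80-fold lower. In contrast, Hist1h1c (H1f2, MM9 chr13:23830675-23832236) read 12.47 and 12.48, a difference of 0.01. Hist1h1e and Hist1h1t were below both floors. The H1 median of -1.62 over 4 genes became -0.74 over the 2 genes above both floors, and -1.20 where each value below a floor was replaced by the floor.

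By position, lower genes were spread over chromosome 13. Rows of the Hist1 cluster fell into 4 stretches separated by over 100 kb on MM9. The counts below stand beside 4.06% of all genes above a floor that were at least 2-fold lower. In the first stretch, chr13:21808280-21903964, 8 of 9 genes above a floor were at least 2-fold lower, with a median of -1.48 and Hist1h3i as the exception. Hist1h2ao, Hist1h2ah and Hist1h2ai are in that count by rows at the same annotated start. By the order of RefSeq starts, Hist1h2ah belongs to the short stretch described below. The Hist1h2ai row at its own place in the first stretch was below both floors. The count and median of the first stretch therefore rest in part on rows away from their genes. In the longest stretch, chr13:23622923-23856275, 9 of 20 genes were at least 2-fold lower, with a median of -1.12 and a range from -2.93 for Hist1h2bg to 0.18 for Hist1h3e. That stretch held 3 genes with a positive difference, Hist1h3e, Hist1h2bc and Hist1h1c. The short stretch between them, chr13:22126981-22134818, held the rows that stand for 2 genes, Hist1h2ag, 2.74-fold lower, and Hist1h4i, 1.75-fold lower. It also held the Hist1h2ah row under the knockout floor, with a bound of -0.15. The remaining stretch holds the testis pair Hist1h2ba and Hist1h2aa.

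The Hist1 cluster as a whole had a median of -1.16 over 32 genes above a floor. Of these, 19 were at least 2-fold lower, beside 4.06% of all genes above a floor. The Hist2 cluster had a median of -0.89 over 6 genes, of which Hist2h2ac alone was at least 2-fold lower. Over the 4 Hist2 genes above both floors the median was -0.33, while over the 28 such Hist1 genes it was -1.10. Class makeup differs between the clusters, and within H2A the medians were -1.51 for 8 Hist1 genes and -0.78 for 2 Hist2 genes. Within H3 they were -0.37 for 5 genes and -0.11 for 2 genes. For H2B the median was -0.96 for 6 Hist1 genes beside -2.12 for Hist2h2bb. For H4 it was -1.15 for 9 Hist1 genes beside -1.51 for Hist2h4. Both of these Hist2 genes were under the knockout floor, so their values are not measured differences. Their bounds were -0.42 and -0.60, so which cluster was lower within H2B and H4 is not known.

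**Figure D3:**
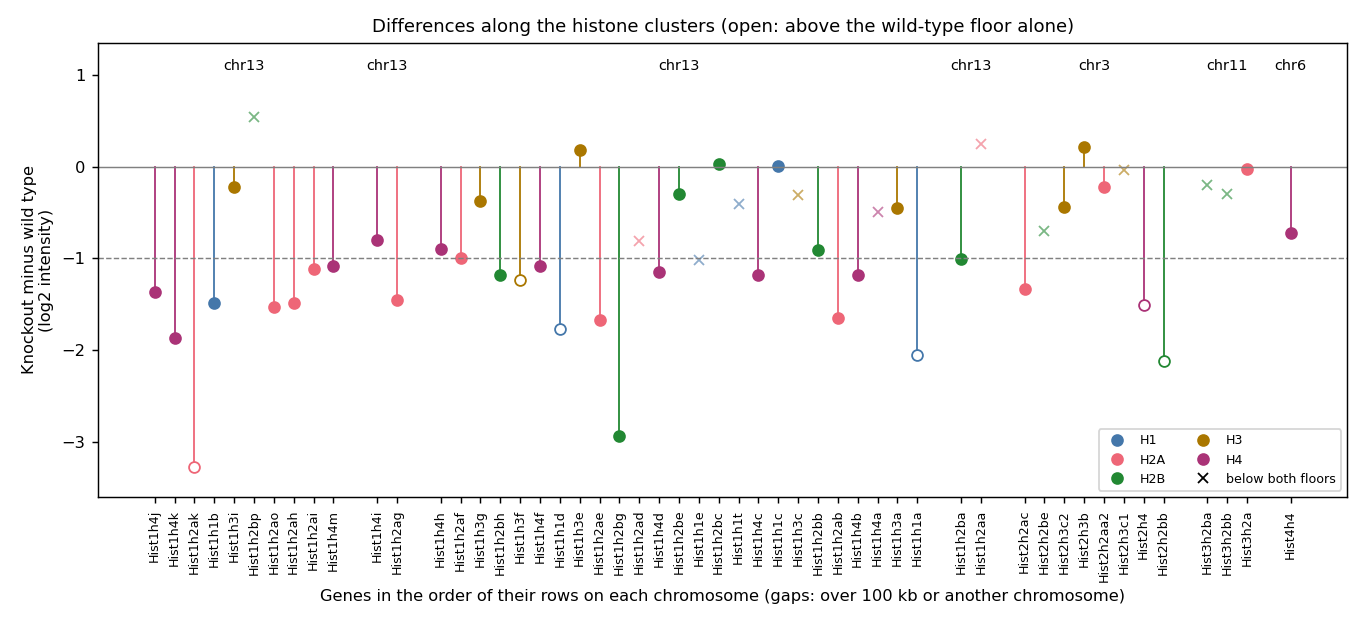
Knockout minus wild type (log2 intensity) of the 51 genes in the order of their rows along chromosomes 13, 3, 11 and 6, coloured by class, with crosses for genes below both floors and open circles for genes above the wild-type floor alone. H3 genes near 0 stand beside lower H1, H2A, H2B and H4 genes in the same stretches.

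Rows of the same gene mostly gave the same direction. Of 12 members with at least 2 rows above a floor, 10 had negative differences in every such row, and 7 of them were at -1 or lower in every such row. In 1 of the 7, Hist1h2ah, a row was under the knockout floor, so its value is not a measured difference. Hist2h3b and Hist3h2a had rows of both signs. The pooled SD of rows of the same gene was 0.37 for these members and 0.45 for 3632 genes of all kinds, a spread between probe sets and not between animals. The widest range, from -1.31 to -0.23, was that of Hist2h2aa2. Every member row was a summary of 3 probes.

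**Figure D4:**
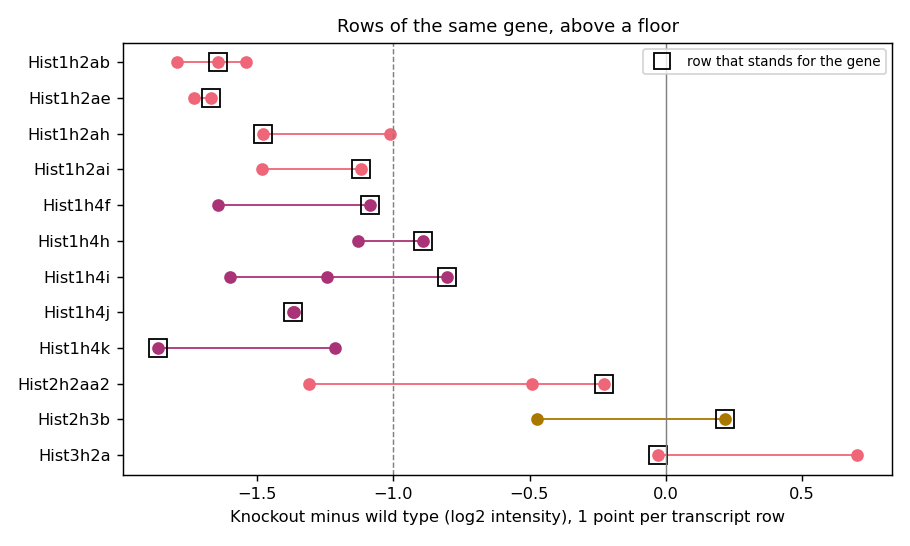
Knockout minus wild type (log2 intensity) of each transcript row above a floor for the 12 histone cluster genes with at least 2 such rows, with a square on the row that stands for the gene. Rows of Hist1h4j coincide at -1.37, while those of Hist2h2aa2 run from -1.31 to -0.23.

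Short rows were more often at least 2-fold lower than long rows, though their medians were similar. The median span of the 72 rows was 492 bases. The 32 rows above a floor with a span up to that had a median difference of -1.18, and the 23 longer rows one of -1.24. All 32 short rows were above both floors, and 23 were at least 2-fold lower, beside 3.81% of all rows above a floor. Of the 23 longer rows, 15 were above both floors, 7 above the wild-type floor alone, and 8 were at least 2-fold lower. The -1.24 thus rests in part on values that are not measured differences. The 8 rows above a floor that spanned over 1000 bases had a median of -0.63 and included Hist1h1c, Hist1h2bc and a row of Hist3h2a near 0, and the other Hist3h2a row at 0.70. The remaining 4, of Hist1h1d, Hist1h3f, Hist2h4 and Hist2h2bb, were lower and under the knockout floor. This split was chosen after the values were seen.

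Genes that make and process histone mRNA had smaller differences than the histone genes themselves. Of 29 such genes measured, 19 were above a floor, with a median of -0.40. Of the 19, 2 were at least 2-fold lower and 1 at least 2-fold higher, beside 4.06% and 5.53% of all genes above a floor. Slbp, which encodes the stem-loop binding protein, read 15.02 (wild type) and 14.05 (knockout), a difference of -0.98 (its rows from -0.98 to -0.50). The coactivator gene Npat read 10.55 and 10.32, a difference of -0.23. Casp8ap2, which encodes the FLASH protein of the histone locus body, differed by -0.40. The U7 snRNP genes Lsm10 and Lsm11 and the processing factor gene Zfp473 were below both floors.

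The members of that list past 2-fold were a cyclin, a cap-binding and a decay gene. Ccne2, one of the genes of cyclin E, read 10.79 and 9.78, 2.02-fold lower. Ncbp1, which encodes the large subunit of the nuclear cap-binding complex, read 12.71 and 11.25, 2.75-fold lower. Xrn1, the gene of a cytoplasmic exonuclease of mRNA decay, read 11.40 and 13.59, 4.56-fold higher, with rows from 1.09 to 2.19.

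Histone genes that give polyadenylated mRNA, most of them active outside S phase, did not reach 2-fold. Of 11 measured, 9 were above both floors, 0 were at least 2-fold lower or higher, and the median was -0.05. Among all genes above both floors 4.19% were lower and 5.38% higher by that much, so a count of 0 in 9 genes is near those shares. H3f3a and H3f3b, which encode the replacement histone H3.3, differed by 0.22 and -0.08. H2afz, the gene of H2A.Z, read 13.63 and 13.58, and H2afv, its close relative, differed by -0.61. H2afx, whose mRNA is known in both a stem-loop and a polyadenylated form, read 9.90 and 9.16, the lowest difference of the list at -0.74. The linker gene H1f0 differed by -0.34 and the centromere histone gene Cenpa by 0.11. The difference between these genes and the histone clusters was not tested.

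DNA replication and S phase genes also had mostly lower values on the knockout array. Of 35 measured, 29 were above a floor, with 9 at least 2-fold lower and 0 higher, beside 4.06% and 5.53% of all genes above a floor. The median was -0.61, and Pcna alone had a positive difference, with rows from -0.27 to 0.17. The dUTPase gene Dut read 13.10 and 10.42, with rows from -2.68 to -1.67. The DNA ligase gene Lig1 read 15.08 and 12.78, 4.91-fold lower, with rows from -2.30 to -1.45. The methylation maintenance gene Uhrf1 read 12.11 and 10.13. Genes of this kind had been seen to be lower on these arrays before, so the list is no independent support.

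**Figure D5:**
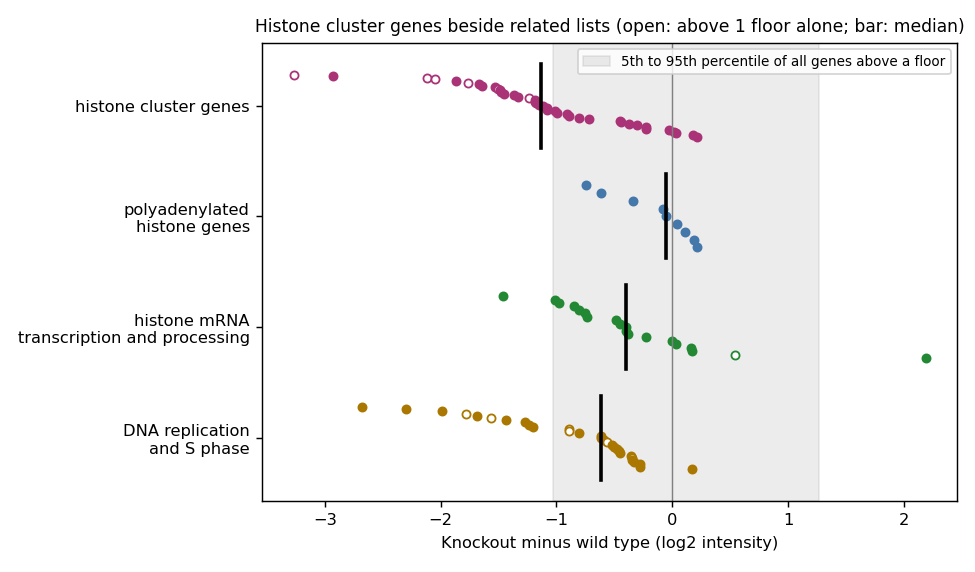
Knockout minus wild type (log2 intensity) of genes above a floor in the histone clusters and 3 related lists, filled where above both floors, with the list median as a bar and the 5th to 95th percentile of all genes above a floor, from -1.03 to 1.27, shaded. Medians were -1.13 for the histone clusters, -0.05 for polyadenylated histone genes, -0.40 for histone mRNA transcription and processing and -0.61 for DNA replication and S phase.

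Markers of other marrow lineages differed between the same arrays. Of 16 B lineage markers, 13 passed the wild-type floor and 6 the knockout floor. At least 2-fold lower were 8 of them, beside 4.06% of all genes above a floor. Their summed intensity went from 27661 to 6465. The B lineage factor gene Pax5 read 11.41 and 7.25, and the genes Vpreb2 (surrogate light chain) and Rag2 (recombination) read 10.46 and 7.56, and 9.48 and 6.66. All of these knockout values lay under the floor, so the genes were at least 5.45-fold, 2.82-fold and 1.42-fold lower. Igll1, another surrogate light chain gene, was below both floors. Of 15 erythroid markers, 13 passed the wild-type floor and 11 the knockout floor, and 5 were at least 2-fold lower, beside the same 4.06%. The summed intensity of the erythroid markers went from 142764 to 95866. Hbb-b2 (haemoglobin) read 14.61 and 12.26, while the brighter haemoglobin genes Hba-a1 and Hbb-b1 differed by -0.18 and -0.21. Hba-a1 read 15.41 and 15.22 and Hbb-b1 15.39 and 15.18, near the highest values of the arrays, so their differences can be compressed. Ank1 (membrane skeleton) read 11.40 and 9.33. Spnb1 (spectrin) read 10.75 and 8.87, under the knockout floor, and was at least 3.44-fold lower.

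Neutrophil markers differed the other way. Of 18, 16 were above both floors and 4 were at least 2-fold higher, beside 5.38% of all genes above both floors. Their summed intensity went from 205628 to 288840. The integrin gene Itgam read 9.91 and 11.39, Padi4 10.72 and 12.07, and the receptor gene Il8rb 11.52 and 12.56. These were the largest of 15 positive differences. S100a9 and Elane differed by only 0.02 and 0.14, and Mpo went the other way, at -0.41. S100a9 read 15.37 and 15.39, near the highest values of the arrays, so its difference can be compressed. The summed intensity of the 51 histone cluster genes, in the same terms, went from 359161 to 158985. The part of these marker genes in the histone differences was not tested.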

How the data were processed

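The authors deposited, for each of the 2 arrays, an intensity on a linear scale per transcript row. RMA is named without a version in the submitters' processing notes, and rows are placed on MM9 per the annotation in the files. RMA as generally defined equalises the arrays' distributions, so differences are relative to other genes. Whether MM9 positions count from 0 or 1 is not stated. Here log2 was taken of the intensities, with no further normalization (Python 3.11.15, pandas 2.3.3, numpy 2.4.6), and the control row of 5000 random probes was left out. Each gene was given by its row of highest mean over the arrays. Current symbols came by gene ID from a RefSeq table of GRCm38.p6, used for names alone. With 1 array per group no test was made, and the number of arrays limits the precision. Near-identical histone genes can share probes.

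Members and lists were chosen with earlier results of these data known. Named were members above a floor with a difference of 1 or more in size, the 2 highest-reading members and the lowest and highest difference of each class, detected members off chromosome 13, the testis genes, up to 3 genes of each list in each direction with a difference of 1 or more, and anchors. Other genes printed were chosen with their values in view. As alternatives served other floors, row choices, centring on a loess curve (span 0.3, statsmodels 0.14.6), the series-wide table, other member sets and other folds. The summaries were tested on simulated data.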

Additional observations from a re-analysis of the deposited data

How the results depend on the processing

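With 1 array per group no replicate could be left out, and no result has a replicate error. No paired analysis was possible because each group has 1 array. An alternative value was held to be near the first one if it moved by under 0.45, the pooled SD of rows of the same gene, or, for a count, by at most 1.5 times. Of 148 alternative values of 13 results, 142 were near it, 6 were not and 0 changed direction. The tally includes settings that could hardly move a value. Among them were the series-wide table, which repeats the same intensities, and a 3-fold limit on a count of 0. Leaving out the testis genes likewise changed nothing in sets where none of them was above a floor. The median of the histone cluster genes ran from -1.18 to -0.995 over 13 alternatives, and the number at least 2-fold higher was 0 in all 14, a 1.5-fold limit included. The number at least 2-fold lower was 20, against 31 with every row a unit (more units) and 6 at 3-fold. The H1 median went from -1.62 to -0.74 over genes above both floors. The Hist2 median went from -0.89 to -0.33 with the floor at the 99th percentile of receptor rows, to -0.43 where each value below a floor was replaced by the floor and to -0.33 over genes above both floors. Class medians ran from -1.46 to -1.33 for H2A, -1.20 to -0.70 for H2B, -0.40 to -0.28 for H3 and -1.20 to -1.09 for H4. The settings of 1 row per place and of the row with the smallest difference were chosen after seeing the data. The series-wide table differed by at most 1.277e-06 on the log2 scale.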

Other observations

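Some rows carry a histone description in the annotation without a gene name of the cluster form, and were not counted among the 51 genes. Gm11275 (now H4c17), described as similar to histone H4 and placed at chr13:21903614-21904019 at the end of the first stretch of the Hist1 cluster, read 11.46 (wild type) and 9.80 (knockout), a difference of -1.66. It covers the annotated place of the Hist1h4m row, which differed by -1.08, so these rows are not readings of separate places. A row without a gene name on chromosome 3, described as the H3 gene Hist2h3c1, read 10.57 and 10.28, a difference of -0.30, while the named row of Hist2h3c1 was below both floors. Gm3835 and Gm12271, both described as similar to the H3.3 gene H3f3a, differed by 0.08 and 0.15. Both rows of LOC665622, described as H2B family members and placed in or beside the first stretch of the Hist1 cluster, were below both floors.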
